A study of Rattus norvegicus with 9 samples.

Results

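Predicted genes carrying a Gm number were examined in 4T1 cells, a mouse mammary carcinoma line, that had received nanoparticles of molybdenum disulfide with or without near-infrared light. The members are the rows of the deposited table whose name is exactly Gm followed by digits. There were 536 such rows, and 1 of them, Gm10736, was left out because every score was 0. The remaining 535 made up 22.4% of the 2391 genes with values. Messenger RNA was sequenced in 9 libraries: 3 of cells given the particles and near-infrared light (MoS2_NIR), 3 of cells given the particles alone (MoS2) and 3 of cells kept in medium (Control). All 3 groups were 4T1 cells grown in high-glucose DMEM with 10% serum, and each library came from a pool of many cultured cells. No group received light without particles, so light was measured only in cells that also held particles. The labels' organism field gives the rat, but the source, the cell line, the build mm10 and the identifiers are those of the mouse, and the genes were read as mouse genes.

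Gm symbols are provisional names that the mouse nomenclature database gives to gene models found by automatic or manual annotation and not yet named for a product or function. The models include long noncoding RNAs, processed and unprocessed pseudogenes, read-through transcripts and a smaller number of coding genes. Pseudogenes and other copies resemble their parent genes in sequence, so short reads can be assigned to either, and a model that overlaps another gene can share its reads. Long noncoding RNAs often sit beside or opposite coding genes and tend to be unstable transcripts, many of them kept in the nucleus. The table gives the models no function, and their positions were not analysed here.

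The table holds 1 score per gene and library, standardized over the 9 libraries, and the expression values behind the scores were recovered for all 535 members. Neither the unit of these values nor the library depth is stated, so levels are compared here between libraries and not between genes. The table is a selection whose rule is not stated: the highest group mean was 2 or more times the lowest in 495 of the 535 members, and under 1.5 times in 1. Counts of changed genes therefore describe genes that had already been picked. Of 11 markers listed for mammary carcinoma epithelium 4 were in the table, with summed values of 806 to 858 in MoS2_NIR, 1300 to 1330 in MoS2 and 1640 to 1770 in Control libraries; these were Krt14, Lcn2, Spp1 and Csf3, and the order of their sum followed Lcn2 and Spp1, while Csf3 was highest in MoS2_NIR and Krt14 lowest in MoS2. Epcam, Krt8 and Cdh1 were among the listed markers that the table does not hold. Of 8 fibroblast markers the table held Col1a1 and Postn, summing to 0.67 to 1.01 in MoS2_NIR, 2.44 to 3.5 in MoS2 and 4.4 to 5.26 in Control libraries, and it held 0 of 8 leukocyte and 0 of 4 endothelial markers. Both sums were lowest in MoS2_NIR and highest in Control, an order most members share, and their part in the results was not tested.

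Over all 535 members the typical value was lower in cells with particles than in medium, and it stayed low when light was added. The median member value was 0.55, 0.53 and 0.55 in the 3 MoS2_NIR libraries, 0.52, 0.49 and 0.48 in the MoS2 libraries, and 0.85, 0.78 and 0.61 in the Control libraries. By this median the 6 libraries with particles lay below all 3 Control libraries, and Control replicate 3 was the lowest of its group. Over the 254 members tested below, MoS2_NIR replicate 1, at 1.94, lay above Control replicate 3, at 1.92. The sum of all member values, to which Gm28438 alone added a mean of 885 in MoS2_NIR, 233 in MoS2 and 171 in Control, ran from 2283 to 2426 in MoS2_NIR, 1723 to 1933 in MoS2 and 1988 to 2224 in Control libraries. The other 1856 genes of the table had medians of 5.3, 5.2 and 5.33 in MoS2_NIR, 3.09, 2.95 and 3.05 in MoS2, and 2.76, 2.76 and 2.25 in Control libraries, so the median of the other genes was highest where that of the members was not. Control replicate 3 was lowest of its group there too. In a bulk culture, fewer cells holding a transcript and less of it per cell cannot be told apart.

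**Figure D1:**
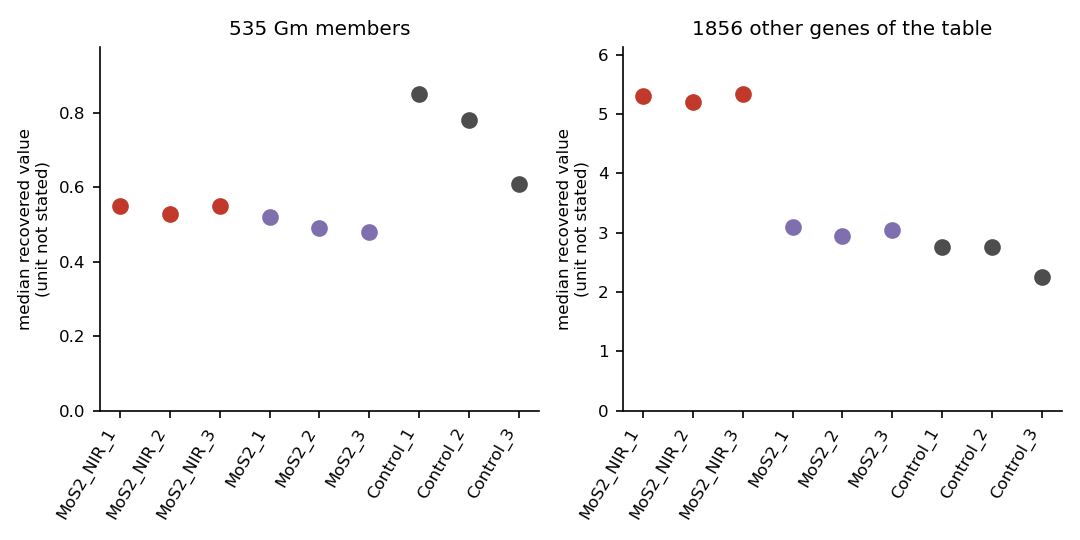
Median recovered value (vertical axis, unit not stated) in each of the 9 libraries (horizontal axis) for the 535 Gm members (left) and the 1856 other genes (right). Members lie between 0.48 and 0.55 in the 6 libraries with particles and between 0.61 and 0.85 in Control, while the other genes are highest, at 5.2 to 5.33, in MoS2_NIR.

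The order of the 3 group means was Control above MoS2 above MoS2_NIR in 296 members (55.3%), and MoS2_NIR above MoS2 above Control in 138 (25.8%). In the other genes the shares were the other way round, 28.1% and 59.8%. Particles without light gave the lowest mean in 70 members, 49 of them with MoS2_NIR highest and 21 with Control highest. They gave the highest mean in 23 members, and 8 had tied means. All 3 comparisons below share libraries pairwise, so their results are not independent of one another.

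For tests, 254 members (47.5%) reached a value of 1 in 3 or more libraries, against 1494 (80.5%) of the other genes, and the 281 members under that limit were compared by the overlap of their libraries. A log2 fold change is the difference between 2 groups in mean log2 (value + 1), a scale that understates changes of low values. Genes with a limma adjusted p under 0.05, over all 1748 tested genes, were called higher or lower. A member could reach the limit through 1 group alone. Gm16570 and Gm44085 did so through Control, and Gm5819, Gm17344 and Gm48796 through MoS2_NIR. Calls of such members follow in part from the limit, and they remain in the counts of calls below. How many members passed in this way was not counted. Replicates of tested members differed more than those of other genes: the median within-group SD of log2 (value + 1) was 0.235 for members and 0.159 for the other genes. Since the labels do not state separate cultures for replicates, p-values reflect only how far these libraries vary, which may be technical.

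The comparison of MoS2_NIR with Control measures particles and light together. Among the 254 tested members 153 (60.2%) were lower and 90 (35.4%) higher after particles and light, and 11 were not called. Over all 1748 tested genes 33.9% were called lower and 63.5% higher. The median log2 fold change was -0.66 for the tested members and 1.01 for all tested genes, and leaving out the 8 members listed at 0 throughout a group gave -0.65. The fold change reached 2 in 67 members that were lower and 64 that were higher, against 244 and 879 of all 1748 tested genes. Fold changes of the called members ran from -3.8 to -0.41 and from 0.61 to 3.57. Of the 1748 tested genes 46 were not called. The 11 members not called ran from -1.7 to 2.58, so they did not all lie between the called ones.

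Counted over all 535 members without a test, 300 (56.1%) had every MoS2_NIR library below every Control library, against 35.2% of all 2391 genes, and 189 (35.3%) had every MoS2_NIR library above, against 59.4% of all genes. The 281 members under the limit split much as the tested ones did, with 157 (55.9%) lower and 98 (34.9%) higher by this count. Scaling the libraries by median ratios, which moved the median change over the tested genes to 0.16 (log2), gave 159 members lower and 47 higher, against 634 and 608 over all tested genes. More members were lower than higher in this comparison without rescaling, with quantile normalization and under median-ratio scaling. Both rescalings brought down the median over all tested genes, from 1.01 to 0.47 and 0.16 in turn. That shift favours lower members, so neither rescaling can test the balance.

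**Figure D2:**
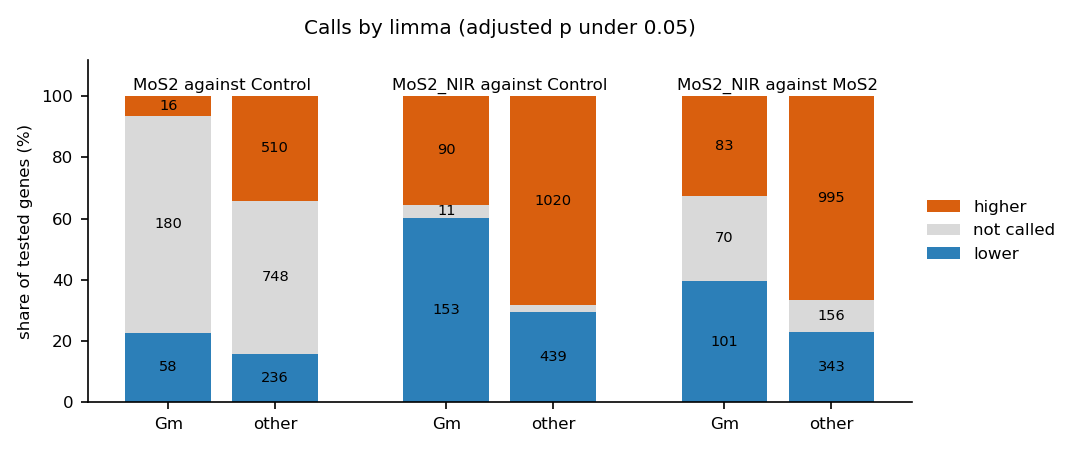
Share of tested genes (vertical axis, percent) called higher, lower or neither by limma in 3 comparisons, for the 254 tested Gm members and the 1494 other genes; the numbers in the bars are genes. Of the members 153 were lower and 90 higher in MoS2_NIR against Control, while of the other genes 439 were lower and 1020 higher.

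**Figure D3:**
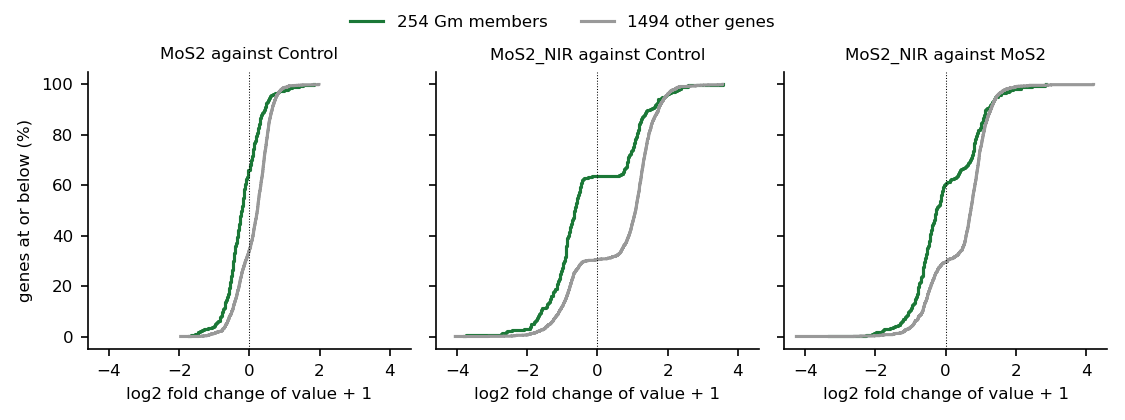
Cumulative share of tested genes (vertical axis, percent) at or below a log2 fold change of value + 1 (horizontal axis) in each comparison, for 254 Gm members (green) and 1494 other genes (grey). In MoS2_NIR against Control the median is -0.66 for the members and 1.09 for the other genes, and few genes of either set lie near 0.

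Gm42836 (ENSMUSG00000104574) had the lowest fold change of the tested members. Its values were 0.67, 1.7 and 1.26 in MoS2_NIR, 8.08, 8.39 and 12.08 in MoS2, and 32.15, 27.72 and 27.96 in Control libraries. The 3 groups did not overlap, and the mean after particles alone lay between the other two. It fell to 1.21 ± 0.517 in MoS2_NIR, against 29.3 ± 2.49 in Control (SD, n = 3 each), a log2 fold change of -3.8 with an SE of 0.19 (limma adjusted p = 8.31e-08). Gm18588 (ENSMUSG00000093402) was 0, 0.03 and 0 in MoS2_NIR, 7.88, 7.97 and 11.78 in MoS2, and 13.06, 14.24 and 10.71 in Control libraries. Here the MoS2 and Control libraries overlapped, and the irradiated libraries were at or near 0 (log2 fold change against Control -3.75, SE 0.16, limma adjusted p = 4.13e-08). Particles alone gave a smaller difference from Control (-0.43, limma adjusted p = 0.044).

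A stepwise decline like that of Gm42836 was seen in other members. Gm17334 was 1.3, 1.37 and 1.57 in MoS2_NIR, 7.89, 7.28 and 7.25 in MoS2, and 17.35, 16.26 and 11.45 in Control libraries (MoS2_NIR against Control -2.71 on the log2 scale, limma adjusted p = 8.79e-08). Gm47920 was 0.15, 0.12 and 0.05 in MoS2_NIR, 0.75, 1.37 and 1.38 in MoS2, and 6.62, 5.89 and 4.87 in Control libraries (-2.61, limma adjusted p = 1.26e-07). In both genes no library of one group reached those of another. Gm43909 was 2.07, 1.73 and 1.83 in MoS2_NIR, 11.65, 10.74 and 11.81 in MoS2, and 18.41, 17.9 and 12.46 in Control libraries (-2.57, limma adjusted p = 1.05e-07).

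Gm41664 was also among the largest decreases, but its libraries were uneven: 13.84, 12.8 and 0 in MoS2_NIR, 18.2, 15.23 and 40.83 in MoS2, and 48.98, 31.74 and 36.07 in Control. The log2 fold change of MoS2_NIR against Control was -2.74 with an SE of 1.06 (limma adjusted p = 0.0402). That call was lost when any 1 Control library was left out (limma adjusted p of 0.101, 0.0729 and 0.0674 without replicates 1, 2 and 3) and without MoS2 replicate 1 or 2 (0.059 and 0.0554). It also ended with only these 2 groups in the fit (0.0675), with the replicate number as a block (0.0653) and with a pseudocount of 0.1 (0.0892).

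**Figure D4:**
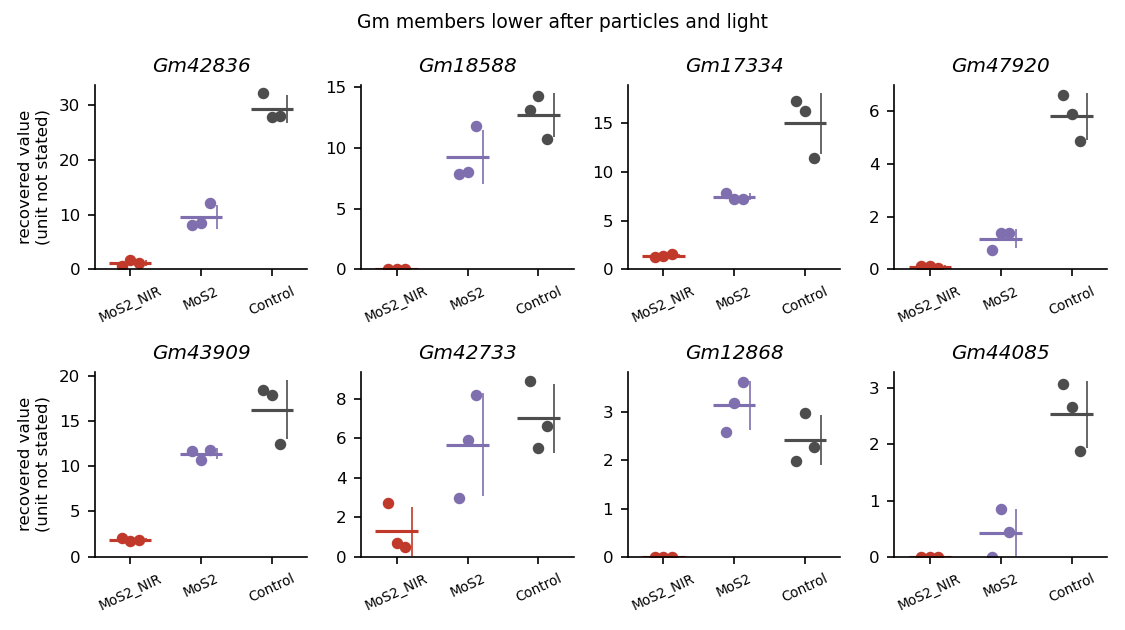
Recovered value (vertical axes, unit not stated, each from 0) of 8 Gm members by group; points are libraries, horizontal lines means and vertical lines the SD (n = 3, drawn no lower than 0). Gm18588 and Gm12868 are high in MoS2 and Control and at or near 0 in MoS2_NIR, while Gm42836, Gm17334 and Gm47920 are lowest in MoS2_NIR, intermediate in MoS2 and highest in Control.

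Among the members that rose was Gm28438 (ENSMUSG00000101939). It had values of 894.62, 850.39 and 911.29 in MoS2_NIR, 269.88, 187.42 and 242.7 in MoS2, and 188.85, 177.39 and 148.16 in Control libraries. The irradiated libraries stood far above the other 6, while MoS2 replicate 2 lay within the range of Control. It rose to 885 ± 31.5 in MoS2_NIR, against 171 ± 21.0 in Control (SD, n = 3 each), a log2 fold change of 2.37 with an SE of 0.13 (limma adjusted p = 1.05e-07). Gm49890 (ENSMUSG00000117123) behaved alike: it was 49.14, 40.74 and 39.79 in MoS2_NIR, 9.56, 7.92 and 9.46 in MoS2, and 7.71, 7.69 and 9.24 in Control libraries (log2 fold change against Control 2.26, SE 0.12, limma adjusted p = 8.97e-08).

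Other members with high fold changes varied more between libraries. Gm2296 was 6.4, 15.37 and 12.63 in MoS2_NIR, 2.39, 0.36 and 0 in MoS2, and 0.65, 0.75 and 3.05 in Control libraries (MoS2_NIR against Control 2.38 on the log2 scale, limma adjusted p = 0.00341, and 0.0529 after median-ratio scaling). Gm49739 had the highest fold change of the called members, 3.57 with an SE of 1.05 (limma adjusted p = 0.0135, and 0.0718 after median-ratio scaling). It was 42.16, 87.47 and 43.94 in MoS2_NIR, 13.56, 7.7 and 36.81 in MoS2, and 12.94, 0 and 6.29 in Control libraries. All irradiated libraries of Gm49739 were above the others, which ranged widely.

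Gm49450 was 28.93, 37.3 and 48.95 in MoS2_NIR, 0, 7.1 and 17.62 in MoS2, and 6.01, 5.23 and 5.12 in Control libraries. The 3 irradiated libraries were the highest, but MoS2 spread from 0 to above Control, and the shared estimate of spread was wide (MoS2_NIR against Control 2.58, SE 1.0, limma adjusted p = 0.0394). The call ended without any 1 of the Control or MoS2_NIR libraries, with limma adjusted p from 0.0634 without MoS2_NIR replicate 1 to 0.101 without MoS2_NIR replicate 3, and without MoS2 replicate 2 (0.0529). It ended too with a pseudocount of 0.1 (0.184), with quantile normalization (0.0907) and under median-ratio scaling (0.207).

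Gm13597 was 7.07, 7.83 and 2.63 in MoS2_NIR, 4.55, 8.17 and 0 in MoS2, and 0, 1.11 and 0 in Control libraries (MoS2_NIR against Control 2.31, SE 0.85, limma adjusted p = 0.0309). Its call ended without Control replicate 1 (0.0895) or 3 (0.0731), without MoS2_NIR replicate 1 (0.0756) or 2 (0.0932), with quantile normalization (0.0657) and under median-ratio scaling (0.112).

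**Figure D5:**
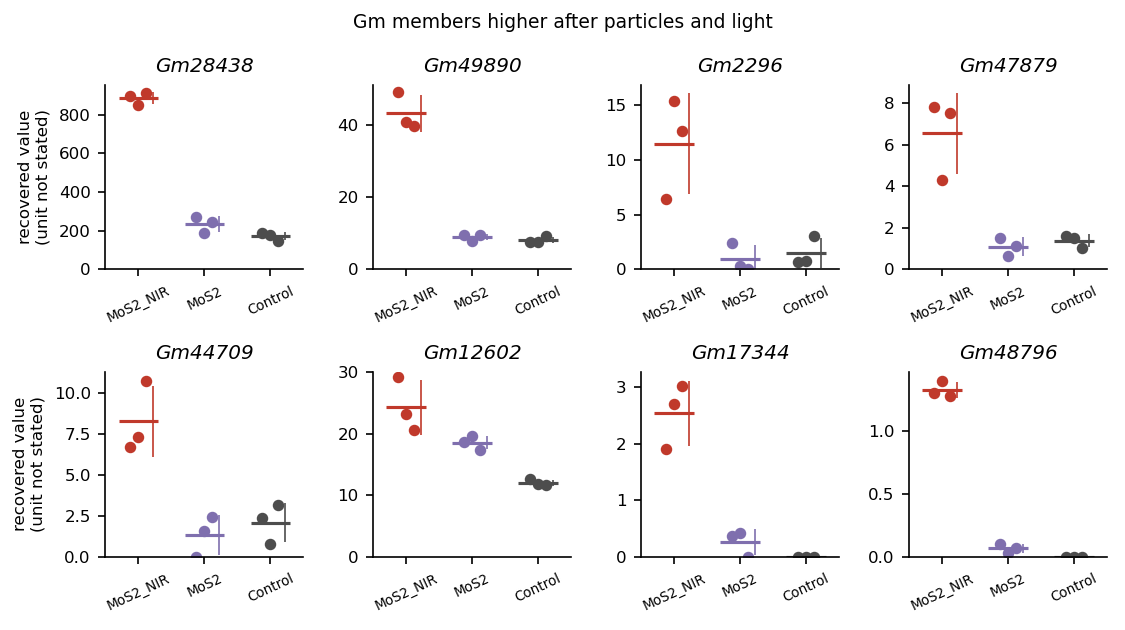
Recovered value (vertical axes, unit not stated, each from 0) of 8 Gm members by group; points are libraries, horizontal lines means and vertical lines the SD (n = 3, drawn no lower than 0). In Gm28438 and Gm49890 the MoS2_NIR libraries stand far above both other groups, and Gm12602 is highest in MoS2_NIR, intermediate in MoS2 and lowest in Control.

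The comparison of MoS2_NIR with MoS2 asks what light added in cells that already held particles. Of the 254 tested members 101 (39.8%) were lower and 83 (32.7%) higher with light, and 70 were not called. Over all tested genes 25.4% were called lower and 61.7% higher. The median log2 fold change was -0.27 for members and 0.68 for all tested genes. By the overlap of libraries, 173 of the 535 members were lower and 174 higher, against 23.7% lower and 57.3% higher over the 2391 genes.

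The balance of the members in this comparison depended on which of them were counted. Among the tested members 103 had non-overlapping libraries with MoS2_NIR lower and 85 with it higher. Among the 281 under the limit 70 were lower and 89 higher. Of the other genes 23.2% were lower and 66.5% higher among the tested, and 13.0% and 56.1% among those under the limit. A smaller share of lower genes under the limit was thus not particular to the members. Without the limit on low values limma called 142 members (26.5%) lower and 177 (33.1%) higher, against 21.2% and 57.5% of all 2391 genes. After median-ratio scaling, which put the median of all tested genes at 0.02, 140 tested members were lower and 42 higher, against 611 and 415 of all tested genes. After quantile normalization 138 members were lower and 51 higher, against 561 and 676 of all tested genes.

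Gm18588 had the lowest fold change with light of the tested members (-3.32, SE 0.16, limma adjusted p = 3.24e-07), with the values given above. Gm42836 fell to 1.21 ± 0.517 in MoS2_NIR, against 9.52 ± 2.23 in MoS2 (-2.26, limma adjusted p = 3.47e-06), Gm43909 to 1.88 ± 0.175, against 11.4 ± 0.577 (-2.11, limma adjusted p = 1.09e-06), and Gm17334 to 1.41 ± 0.14, against 7.47 ± 0.361 (-1.81, limma adjusted p = 2.67e-06). Gm42733 was 2.71, 0.68 and 0.47 in MoS2_NIR, 2.98, 5.9 and 8.18 in MoS2, and 8.94, 5.53 and 6.61 in Control libraries (MoS2_NIR against MoS2 -1.59, limma adjusted p = 0.00596). The MoS2_NIR and MoS2 libraries did not overlap, though MoS2_NIR replicate 1 came close to MoS2 replicate 1.

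Gm6158 was higher with particles alone than with light in every library: 9.02, 7.16 and 3.76 in MoS2_NIR, 18.84, 15.63 and 26.26 in MoS2, and 7.81, 12.53 and 19.82 in Control (MoS2_NIR against MoS2 -1.51, SE 0.37, limma adjusted p = 0.00516). Its MoS2_NIR and Control libraries overlapped, as did MoS2 and Control.

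Of the members that rose with light, Gm28438 rose to 885 ± 31.5 in MoS2_NIR, against 233 ± 42.0 in MoS2 (1.94, limma adjusted p = 1.09e-06), and Gm49890 to 43.2 ± 5.15, against 8.98 ± 0.919 (2.15, limma adjusted p = 7.3e-07). Gm2296 rose to 11.5 ± 4.6, against 0.917 ± 1.29 in MoS2 (2.83, limma adjusted p = 0.00174). Gm47879 was 7.83, 4.32 and 7.52 in MoS2_NIR, 1.52, 0.63 and 1.13 in MoS2, and 1.62, 1.51 and 1.05 in Control libraries (MoS2_NIR against MoS2 1.84, limma adjusted p = 2.73e-05). In that gene the MoS2 and Control libraries overlapped, and every irradiated library was above the other 6.

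Gm44709 was 6.7, 7.35 and 10.77 in MoS2_NIR, 0, 1.6 and 2.4 in MoS2, and 2.34, 0.78 and 3.15 in Control libraries (MoS2_NIR against MoS2 2.14, limma adjusted p = 0.00364). The irradiated libraries of Gm44709 did not overlap either other group. Gm49450 had the highest fold change with light, 2.86 with an SE of 1.0 (limma adjusted p = 0.0308). The call ended without any 1 of the MoS2_NIR libraries (0.0534, 0.0733 and 0.0835 without replicates 1, 2 and 3), with only these groups in the fit (0.0671), with a pseudocount of 0.1 (0.0795), with quantile normalization (0.0555) and under median-ratio scaling (0.112).

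The comparison of MoS2 with Control measures particles without light, and fewer members moved. Of the 254 tested members 58 (22.8%) were lower and 16 (6.3%) higher, and 180 were not called. Over all tested genes 16.8% were called lower and 30.1% higher. The median log2 fold change was -0.22 for members and 0.17 for all tested genes. Leaving out Control replicate 2 brought the lower members to 36, beside 18 higher. The share of all tested genes without that library is not given here, so the drop is not read as particular to the members. Over the 535 members 160 had every MoS2 library below every Control library and 28 had every one above, against 21.3% and 28.6% of all genes. After median-ratio scaling 123 tested members were lower and 8 higher, against 542 and 229 of all tested genes.

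The fold change reached 2 in 8 members that were lower and 2 that were higher, against 26 and 20 of all 1748 tested genes. Gm47920 fell to 1.17 ± 0.361 in MoS2, against 5.79 ± 0.879 in Control (SD, n = 3 each; log2 fold change -1.65, limma adjusted p = 9.02e-05), and Gm42836 to 9.52 ± 2.23, against 29.3 ± 2.49 (-1.54, limma adjusted p = 0.000365). Gm19196 was 8.54, 10.66 and 9.75 in MoS2_NIR, 8.24, 5.64 and 8.44 in MoS2, and 21.72, 14.18 and 14.24 in Control libraries (MoS2 against Control -1.06, limma adjusted p = 0.00193). Both groups with particles lay below Control, and MoS2_NIR lay above MoS2 by a difference that was not called (0.35, SE 0.19, limma adjusted p = 0.0972). Gm36989 was 0.63, 0.64 and 1 in MoS2_NIR, 2.77, 2.41 and 2.11 in MoS2, and 6.73, 6.78 and 3.76 in Control libraries (MoS2 against Control -0.95, limma adjusted p = 0.0035).

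The calls of Gm9843 and Gm13431 rested on single libraries. Gm9843 was 50.98, 54.23 and 25.76 in MoS2_NIR, 43.18, 64.7 and 27.69 in MoS2, and 84.18, 94.27 and 151.36 in Control libraries, so that both groups with particles lay below Control (MoS2 against Control -1.3, SE 0.4, limma adjusted p = 0.0298). Its call ended without Control replicate 2 (0.0521) or 3 (0.0722), without MoS2 replicate 1 (0.0683) or 3 (0.08), and after quantile normalization (0.0573). Gm13431 was 1.77, 1.19 and 0.29 in MoS2_NIR, 1.49, 2.96 and 3.41 in MoS2, and 5.54, 5.54 and 6.89 in Control libraries (MoS2 against Control -0.99, limma adjusted p = 0.0207; 0.0639 without Control replicate 3, 0.06 without MoS2 replicate 1 and 0.0905 with a pseudocount of 0.1).

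Only 16 members were called higher with particles alone, and of these 4 had a group mean of at least 5. Gm12602 was 29.15, 23.13 and 20.52 in MoS2_NIR, 18.58, 19.62 and 17.41 in MoS2, and 12.6, 11.84 and 11.58 in Control libraries, with no overlap between any groups (MoS2 against Control 0.59, SE 0.12, limma adjusted p = 0.00467, and 0.0813 after median-ratio scaling). Gm26532 was 5.26, 7.94 and 9.31 in MoS2_NIR, 4.54, 5.21 and 6.79 in MoS2, and 3.08, 1.58 and 3.38 in Control libraries (0.85, limma adjusted p = 0.0162). That call ended without MoS2 replicate 3 (0.0555), with quantile normalization (0.0573) and under median-ratio scaling (0.104).

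Gm49383 was 8.54, 7.76 and 7.1 in MoS2_NIR, 3.76, 6.43 and 4.9 in MoS2, and 3.06, 3.31 and 2.97 in Control libraries (MoS2 against Control 0.53, limma adjusted p = 0.0177). Its call ended without MoS2 replicate 2 (0.0673), with quantile normalization (0.0672) and under median-ratio scaling (0.185). With particles alone Gm28438 averaged 233 ± 42.0 in MoS2, against 171 ± 21.0 in Control (0.43, SE 0.13, limma adjusted p = 0.0211). That call ended without Control replicate 3 (0.0759), without MoS2 replicate 1 (0.0845) or 3 (0.0648), after median-ratio scaling (log2 fold change 0.10, limma adjusted p = 0.5) and on the deposited scores (0.148).

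Some members were listed at 0 throughout a group. This held in all 3 MoS2_NIR libraries for 19 members, in all 3 MoS2 libraries for 11 and in all 3 Control libraries for 18, against 18, 12 and 29 of the 1856 other genes. In 6 of the members another group was at 1 or more in all 3 libraries. The same count over the other genes is not given here, so these 6 are not read as particular to the members. They are described next. Gm12868 was listed at 0 in MoS2_NIR and was 2.6, 3.2 and 3.63 in MoS2 and 1.98, 2.99 and 2.29 in Control libraries. Gm44085 was likewise listed at 0 in MoS2_NIR, was 0, 0.85 and 0.44 in MoS2, and was 3.07, 2.66 and 1.89 in Control libraries. In Gm12868 the MoS2 libraries overlapped Control, while in Gm44085 they lay below it.

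Gm16570 was listed at 0 in MoS2_NIR and was 0.61, 0.29 and 0.62 in MoS2 and 3.38, 1.23 and 1.88 in Control libraries. The converse pattern, with Control listed at 0, was seen for the other 3. Gm17344 was 1.9, 2.69 and 3.02 in MoS2_NIR and 0.37, 0.42 and 0 in MoS2, and Gm5819 was 1.88, 3.48 and 1.83 in MoS2_NIR and 0, 0.57 and 0.32 in MoS2. Gm48796 was 1.3, 1.4 and 1.28 in MoS2_NIR and 0.1, 0.03 and 0.07 in MoS2. In all of these 3 genes every irradiated library lay above the 6 others. These genes were chosen for their values of 0, so no test and no fold is given for them.

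Of the tested members, Gm50143 and Gm42664 were called in opposite directions by particles and by added light. The share of all tested genes with opposite calls is not given here, so this count is not read as particular to the members. Both genes were picked for these calls, and the comparisons share the MoS2 libraries, so the adjusted p-values below do not test the opposite pattern. Gm50143 was 0.43, 0.29 and 0.36 in MoS2_NIR, 2.06, 1.57 and 2.56 in MoS2, and 1.24, 1.04 and 1.23 in Control libraries, a peak with particles alone and no overlap between groups. It was higher in MoS2 than in Control (0.49, limma adjusted p = 0.0135, and 0.0913 after median-ratio scaling) and lower in MoS2_NIR than in MoS2 (-1.16, limma adjusted p = 2.09e-05). Gm42664 was 1.11, 0.97 and 1.17 in MoS2_NIR, 0.71, 0.66 and 0.42 in MoS2, and 2.38, 2.01 and 1.21 in Control libraries, a dip with particles alone. Its decrease with particles was called (-0.83, limma adjusted p = 0.00289). Its higher level with light (0.39, limma adjusted p = 0.0391) was no longer called without MoS2 replicate 2 or 3 (0.0586 and 0.131), without any 1 of the MoS2_NIR libraries (0.0831, 0.0521 and 0.0921 without replicates 1, 2 and 3), with a pseudocount of 5 (0.0773), after median-ratio scaling (log2 fold change 0.02, limma adjusted p = 0.901) or after quantile normalization (0.413).

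The members with the widest spread inside groups were Gm28037, Gm10241 and Gm6851, and the tests called none of their differences. Gm28037 was 6.01, 6.53 and 5.06 in MoS2_NIR, 9.7, 0 and 48.99 in MoS2, and 18.09, 9.46 and 54.4 in Control libraries, a within-group SD of 1.79 on the log2 scale. Gm10241 was 11.76, 15.24 and 17.64 in MoS2_NIR, 0, 7.82 and 23.86 in MoS2, and 6.41, 0 and 1.42 in Control libraries. Gm6851 was 43.94, 31.76 and 49.01 in MoS2_NIR, 17.96, 22.25 and 0 in MoS2, and 5.77, 10.89 and 13.84 in Control libraries. The irradiated libraries of Gm6851 lay above the other 6, yet the difference was not called (MoS2_NIR against Control 1.98, SE 1.19, limma adjusted p = 0.143).

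A single library listed at 0 beside 2 libraries of the same group at 5 or more occurred in 6 members, which were Gm41664, Gm28037, Gm49739, Gm10241, Gm6851 and Gm49450. Among the 1856 other genes it occurred in 1. A value of 0 may be a failed estimate as well as a missing transcript, and the scores do not tell these apart. In all, 175 members (32.7%) were listed at 0 in at least 1 library, against 162 (8.73%) of the other genes.

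By their database description, 291 members were plain predicted genes, 235 predicted genes written with a comma, 8 predicted pseudogenes and 1 a predicted read-through transcript. In the first class 109 were higher and 153 lower in MoS2_NIR than in Control by non-overlapping libraries, and in the second 76 were higher and 143 lower, beside 59.4% higher and 35.2% lower over all genes. The described pseudogenes were 3 higher and 4 lower by this count. Of the 6 tested limma called 0 higher and 4 lower, beside 63.5% and 33.9% of all tested genes. Of these 8, chosen for their description after their values were seen, Gm10182 was 101.03, 43.67 and 85.29 in MoS2_NIR, 149.07, 139.56 and 167.57 in MoS2, and 157.23, 147.54 and 114.56 in Control libraries (MoS2_NIR against Control -0.93, limma adjusted p = 0.0103). Gm10282 was 10.74, 12.93 and 8.94 in MoS2_NIR, 17.52, 17.83 and 14.06 in MoS2, and 18.41, 17.99 and 18.26 in Control libraries (-0.71, limma adjusted p = 0.000388). Both were lowest in irradiated cells, and reads of a pseudogene may belong to its parent gene. The tested pseudogenes that were not called were Gm10241 and Gm6851, of wide spread as described above. In each of them every MoS2_NIR library lay above every Control library.

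The read-through transcript Gm44505, which the table describes as a candidate for nonsense-mediated decay, was 4.97, 4.04 and 6.13 in MoS2_NIR, 1.99, 1.93 and 1.45 in MoS2, and 1.82, 1.41 and 1.99 in Control libraries. The irradiated libraries lay above the other 6 (MoS2_NIR against Control 1.13, limma adjusted p = 2.99e-05). Read-through transcripts join the exons of neighbouring genes, so its reads may be shared with them.

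The Gm numbers of the members ran from 1818 to 53058. Members numbered from 30000 to under 40000 had 45 of 65 lower and 17 higher in MoS2_NIR than in Control by non-overlapping libraries, and those from 10000 to under 20000 had 83 of 138 lower and 42 higher. Members under 10000 had 25 lower and 25 higher of 58, and those from 20000 to under 30000 had 24 lower and 27 higher of 58. Of the 216 members numbered 40000 or over, 123 were lower and 78 higher. By limma calls the range under 10000 had 19 lower and 9 higher of 31 tested. From 10000 to under 20000 there were 60 and 24 of 88, and from 20000 to under 30000 there were 13 and 14 of 29. The range from 30000 to under 40000 had 8 and 5 of 13, and that of 40000 or over had 53 and 38 of 93. Of all tested genes 33.9% were called lower and 63.5% higher. The share of lower members by non-overlapping libraries ran from 41.4% to 69.2% over the ranges, against 35.2% of all genes. These splits were made after values were seen and carry no test.

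The table holds other groups of genes with systematic names. Names ending in Rik or os, endings used for uncharacterised cDNA clones and opposite-strand transcripts, were carried by 149 genes. The match on os, with or without a number, also took in the named genes Fos and Nanos1. Of the 149 genes 75 were tested, and 35 were lower and 39 higher in MoS2_NIR than in Control (median log2 fold change 0.65). Over all 149, 76 (51.0%) were lower and 67 (45.0%) higher by non-overlapping libraries, beside 56.1% and 35.3% of the Gm members. Of 80 zinc finger genes named Zfp, 67 were tested, and 3 were lower and 62 higher (1.04). The Gm members, at 153 lower and 90 higher, had the lowest median, -0.66, and a difference between the groups of genes was not tested. With particles alone the medians were -0.22 for Gm members, -0.09 for genes with names ending in Rik or os and 0.27 for Zfp genes.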

How the data were processed

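Polyadenylated RNA of 9 libraries of 4T1 cells was analysed. Groups and replicate numbers come from the sample titles. The build mm10 and the tools HTSeq, Cufflinks 2.1.1 and Bowtie 0.12.9 are listed, per the submitters' processing notes, without their roles. Strand use in counting is not given in the sources used here, and reads of antisense pairs cannot be told apart. The values deposited by the authors are scores, standardized per gene (mean 0, population SD 1) over the 9 libraries in 2391 genes, with 1 further gene at 0 throughout. The expression values behind the scores were recovered by searching for 9 values with a step of 0.01 whose log (value + 1) gives the scores within 1e-09. This succeeded for 2391 of 2392 genes, and the expected number of chance solutions was at most 2.6e-04 per gene. In 9 genes, 2 of them members that are not named, several multiples of the values would give the scores. The search was tested on simulated scores. Values were not rescaled between libraries.

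All 9 libraries entered 1 limma 3.58.1 fit (R 4.3.3; intensity trend, robust) of log2 (value + 1), over the 1748 genes that reached 1 in 3 or more libraries, with Benjamini-Hochberg adjustment over all of them. The planned test for normalized values was used, since the table holds neither counts nor a named unit. Depth is unknown, so no counting interval is given. Libraries of 1 group had Pearson correlations of 0.975 to 0.984 across tested genes. The genes named were, per comparison, the 6 highest and 6 lowest fold changes among called members with a mean of at least 5 in either group, members at 0 throughout 1 group and at 1 or more throughout another, members called in opposite directions by particles and light, and the 3 with the widest replicate spread. Gm10182, Gm10282, Gm44505, Gm49889, Gm20605, Gm20604, Gm17082 and Gm17083 fall outside this rule and were named after their values were seen. Members, lists and tests were chosen with earlier results of these data known. Alternatives covered pseudocount, filter, scaling, variance model, samples in the fit, deposited scores, replicate block and leaving out each library. Positions and sequences of members were not analysed here.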

Additional observations from a re-analysis of the deposited data

How the results depend on the processing

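The direction of the median log2 fold change of the tested members held under every alternative run, and so did the sign of the 38 calls named for their rank or for opposite directions, 24 of which held at every setting. For other genes only the counts of calls were compared between settings, and not each call. Counts of members below are higher and lower.

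For MoS2 against Control (16 and 58 as reported), no filter on low values gave 134 lower and the deposited scores 132 lower. Median-ratio scaling gave 8 and 123. Of all genes these settings called 16.7%, 17.5% and 31.0% lower in turn, and median-ratio scaling called 13.1% higher. For MoS2_NIR against Control (90 and 153), no filter gave 191 and 321, the deposited scores 192 and 323, and median-ratio scaling 47 higher. Of all genes these settings called 59.9%, 60.1% and 34.8% higher in turn. Lower were 36.6% with no filter and 37.0% with the deposited scores. For MoS2_NIR against MoS2 (83 and 101), no filter gave 177 higher and the deposited scores 179 and 152. Median-ratio scaling gave 42 higher and quantile normalization 51 higher. Of all genes these settings called 57.5%, 58.1%, 23.7% and 38.7% higher in turn, and the deposited scores called 22.1% lower. More genes enter the first 2 settings by construction, and the cause of the other moves was not tested. Members whose libraries do not overlap became 16 higher and 249 lower for MoS2 against Control after median-ratio scaling (28 and 160 as reported). For MoS2_NIR against MoS2 they became 276 lower (173 as reported). The share of all genes by this count after scaling is not given here, so these moves are not read as particular to the members.

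The median log2 fold change of MoS2 against Control (-0.22) was -0.35 with a pseudocount of 0.1, -0.10 with 5, -0.32 after quantile normalization and -0.48 under median-ratio scaling. That of MoS2_NIR against Control (-0.66) was -0.97 and -0.24 with these pseudocounts, -0.40 with no filter, -0.72 with a filter on a mean of at least 1, -1.28 under median-ratio scaling and -1.05 after quantile normalization. That of MoS2_NIR against MoS2 (-0.27) was -0.39 and -0.10 with these pseudocounts, -0.09 with no filter, -0.63 under median-ratio scaling and -0.56 after quantile normalization.

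Leaving out 1 library at a time gave 13 to 18 higher and 36 to 70 lower members for MoS2 against Control, 86 to 92 and 137 to 154 for MoS2_NIR against Control, and 76 to 84 and 86 to 101 for MoS2_NIR against MoS2. The shares of all tested genes at these settings are not given here, so these ranges are not read as particular to the members. The medians of the members ran from -0.28 to -0.17, from -0.75 to -0.60 and from -0.27 to -0.22. Same-numbered libraries did not deviate together (correlations of -0.081 to 0.10), and with the replicate number as a block 16 and 58, 90 and 152, and 83 and 103 members were called. Of all tested genes this setting called 28.8% higher and 15.6% lower, 63.6% and 34.1%, and 61.4% and 25.3% in turn. Depth and the authors' selection of genes limit all counts.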

Other observations

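Of the 535 members 23 pairs carry consecutive Gm numbers, with 1 gene shared by 2 of the pairs. In MoS2_NIR against Control both genes had lower, non-overlapping libraries in 8 pairs and higher ones in 3, and in 6 pairs the genes went opposite ways. Of all 535 members 56.1% were lower and 35.3% higher by this count, beside 35.2% and 59.4% of all genes. Whether genes of a pair go together more often than these shares give was not tested. Beside Gm49890, whose values are given above, its neighbour in number Gm49889 was 0.96, 0.97 and 0.75 in MoS2_NIR, 0.04, 0.08 and 0.13 in MoS2, and 0, 0.04 and 0.04 in Control libraries. Gm20605 was 15.85, 16.22 and 14.43 in MoS2_NIR, 4.97, 4.08 and 4.69 in MoS2, and 4.23, 2.88 and 2.16 in Control libraries, and its neighbour Gm20604 was 3.24, 3.41 and 3.06 in MoS2_NIR, 1.08, 1.53 and 1.45 in MoS2, and 1.06, 0.88 and 0.73 in Control libraries. In Gm17082 and Gm17083 the directions differed: the first was 0.72, 1.07 and 1.05 in MoS2_NIR and 3.05, 2.64 and 2.3 in Control, and the second was 0.85, 0.77 and 0.77 in MoS2_NIR and 0.05, 0 and 0 in Control libraries. These genes were chosen after their values were seen, and whether models with neighbouring numbers lie near each other in the genome was not analysed here.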
